A study of Mus musculus with 8 samples.

Results

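The 10 genes described here are protein genes of the mouse mitochondrial genome: mt-Nd1, mt-Nd2, mt-Nd4, mt-Nd5, mt-Nd6, mt-Cytb, mt-Co1, mt-Co3, mt-Atp6 and mt-Atp8. They were chosen by symbol from a table of 43629 genes with values, and each matched 1 entry. The table lists 37 genes on the mitochondrial chromosome, of which 13 encode proteins, 22 encode tRNAs and 2 encode rRNAs. The 3 protein genes outside the 10 are mt-Nd3, mt-Nd4l and mt-Co2.

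Liver RNA of 8 male C57BL/6 mice, 7 to 8 weeks old, was sequenced with 1 library per mouse. All 8 mice were given 5 µg of an antagomiR (an antisense RNA, modified for stability, that blocks a microRNA) through the tail vein. After 48 h each had 1 mg/kg CL316243 under the skin, a drug that stimulates the β3-adrenergic receptors of fat cells. The livers were taken 2 h after that. In 4 mice the antagomiR was antagomiR-122, directed against the liver microRNA miR-122, and in the other 4 it was antagomiR-control, so by the labels the groups differed in the antagomiR and shared CL316243. An injected antagomiR is not confined to one cell type of the liver. Mature miR-122 was not analysed here, nor were mice without CL316243.

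The mitochondrial genome is a small circular DNA present in many copies per cell. The only proteins it encodes are core subunits of the respiratory chain and of ATP synthase, and nuclear genes encode all other proteins of the organelle. Both of its strands are transcribed as long precursors that are cut at the tRNAs between the protein genes, so that the mRNAs of 1 strand start out in equal amounts and come to differ through processing and decay. The mt-Nd genes encode subunits of complex I, which oxidises NADH. mt-Cytb encodes cytochrome b of complex III, mt-Co1 and mt-Co3 encode subunits of complex IV, which reduces oxygen, and mt-Atp6 and mt-Atp8 encode membrane subunits of ATP synthase. Liver cells use this chain to reoxidise the carriers reduced when fatty acids are burnt.

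On GRCm38 the 10 genes lie between positions 2751 and 15288 of the mitochondrial chromosome, and 9 of them are on the plus strand. mt-Nd6 (positions 13552 to 14070) is on the minus strand. Neighbouring genes overlap in places. The last 43 bases of mt-Atp8 are also the first 43 bases of mt-Atp6, read in another frame, and 14 bases at the end of mt-Nd5 are the complement of the end of mt-Nd6. The sequences are shown because reads from these stretches fall on both genes, and the overlap is in capitals (GENCODE M21 transcripts on GRCm38, 5′ to 3′).
mt-Atp8, chrM:7907-7969, plus strand: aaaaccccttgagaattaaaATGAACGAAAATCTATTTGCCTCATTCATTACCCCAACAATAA
mt-Atp6, chrM:7927-7989, plus strand: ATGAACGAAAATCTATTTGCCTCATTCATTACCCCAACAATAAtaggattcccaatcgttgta
mt-Nd5, chrM:13532-13565, plus strand: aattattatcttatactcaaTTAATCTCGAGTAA
mt-Nd6, chrM:13552-13585, minus strand: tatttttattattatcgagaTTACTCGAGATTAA

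Parts of the mitochondrial genome also exist as copies in the nuclear genome. The annotation holds 7 pseudogenes in a row on chromosome 1, positions 24611535 to 24616197 on the minus strand, which follow the order of the mitochondrial genes from the end of mt-Co1 to mt-Nd4. Aligned to them, mt-Atp6 was identical to Gm10925 over 678 of its 681 bases and mt-Co3 to Gm28437 over 783 of its 784 bases, with 0 mismatches. mt-Nd4 was identical to Gm28439 over its first 876 bases, which are 63.6% of the gene. mt-Co1 had 1 mismatch to Gm29216 over 483 bases, A1066T, counted from the first base of mt-Co1, and 37 mismatches over all 1545 bases to Gm13340 on chromosome 2. The best annotated matches of the other genes were less alike. They were 96.7% identical for mt-Nd2 (Gm13339, 510 bases), 95.2% for mt-Nd5 (Gm4076, 954 bases), 93.6% for mt-Nd6 (Gm11408, all 519 bases) and 92.9% for mt-Cytb (Gm11410, 1142 bases). No annotated nuclear transcript matched mt-Nd1 or mt-Atp8 over 100 bases at more than 90% identity.

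Stretches of 3 genes and their copies are shown, because they range from no difference to several. Capitals mark the bases at which the mitochondrial gene and the copy differ.
mt-Co3, chrM:8607-8666, plus strand: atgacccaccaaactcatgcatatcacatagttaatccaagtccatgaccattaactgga
Gm28437, chr1:24613912-24613971, minus strand: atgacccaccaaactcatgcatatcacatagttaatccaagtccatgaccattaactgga
mt-Co1, chrM:6390-6422, plus strand: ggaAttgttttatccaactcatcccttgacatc
Gm29216, chr1:24616156-24616188, minus strand: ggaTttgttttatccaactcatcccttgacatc
mt-Cytb, chrM:14146-14205, plus strand: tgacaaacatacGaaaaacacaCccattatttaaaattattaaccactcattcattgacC
Gm11410, chr4:80003990-80004049, plus strand: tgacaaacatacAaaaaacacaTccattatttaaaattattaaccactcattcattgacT

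The levels of the 10 genes fell into 2 ranges, and the low range held the genes that have an identical copy of nearly their whole length. Levels are given in FPKM as deposited, the number of sequenced fragments per kilobase of gene after library scaling. This takes gene length into account, but a comparison between genes is uncertain for one as short as mt-Atp8 (204 bases). The 8 genes other than mt-Atp6 and mt-Co3 averaged 4249 to 82184 FPKM over the libraries in which they were above 0. mt-Atp6 averaged 24.5 FPKM and mt-Co3 1.88 FPKM. To set this beside the sequence, each gene was divided into all its windows of 50 bases. Such a window had an identical match in an annotated nuclear transcript in 99.5% of cases for mt-Atp6 and 99.9% for mt-Co3. The share was 62.2% for mt-Nd4, 51.1% for mt-Co1, 8.19% for mt-Nd2, 7.61% for mt-Nd5 and 0% for mt-Nd1, mt-Nd6, mt-Cytb and mt-Atp8.

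**Figure D1:**
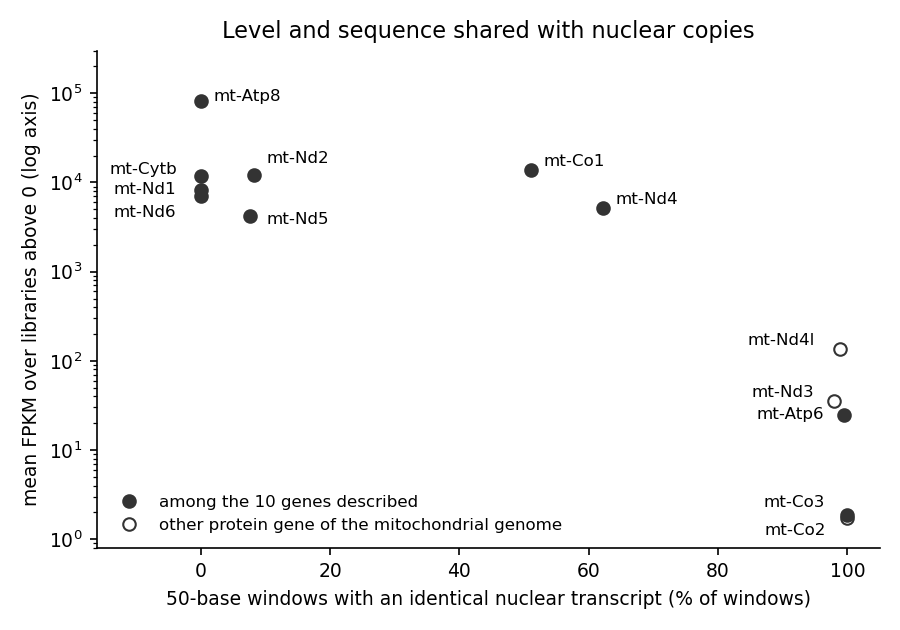
Mean FPKM over the libraries above 0 (log axis) against the percentage of 50-base windows with an identical match in an annotated nuclear transcript, for the 13 protein genes of the mitochondrial genome. The 5 genes with at least 98.0% of windows matched lie at or below 135.1 FPKM, and the other 8 lie at 4249 FPKM or above.

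The 3 protein genes outside the 10 lay in the lower range as well. mt-Co2 averaged 1.73 FPKM with 100% of windows matched, mt-Nd3 35.7 FPKM with 98.0%, and mt-Nd4l 135.1 FPKM with 98.8%. The copies on chromosome 1 were low too: Gm10925 averaged 1.41 FPKM, Gm28437 1.28 FPKM and Gm28439 0.961 FPKM. Neither these genes nor their copies were thus listed at a level near that of the neighbouring genes. How the authors treated reads with more than 1 place in the genome is not given in the sources used here, and the part of the copies in the low levels was not tested. The FPKM of mt-Atp6 and mt-Co3 are uncertain as measures of their transcripts. mt-Nd4 and mt-Co1 share part of their sequence with copies, so their FPKM may depend on how such reads were treated. A copy of mt-Atp8 could not be looked for in full. Between the copies of mt-Co2 and mt-Atp6, chromosome 1 has 233 bases outside any annotated gene, as many as the mitochondrial genome has between the matching ends. That stretch was not compared, because no genome sequence was used here.

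Every 0 among the 10 genes came from 1 library. antagomiR-122 replicate 4 listed mt-Co1, mt-Atp8, mt-Atp6 and mt-Co3 at 0, and no other library listed any of the 10 at 0. Its mt-Co2, which lies between mt-Co1 and mt-Atp8, was at 2.11 FPKM. Across the whole table this library held 15 genes at 0 that were above 5 FPKM in all others, and the other 7 libraries held 0 such genes each. Both rRNA genes and 21 of the 22 tRNA genes of the mitochondrial genome were listed at 0 in all 8 libraries, so zeros for mitochondrial genes are not limited to that library. All of them may be failed estimates and are given as listed, with no mean. That library also stood apart in its estimated depth, 2.24 relative to the median library against 0.892 to 1.24 in the other 7, and the part of depth in its zeros was not tested.

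Complex I was measured through 5 genes. mt-Nd1, the subunit at the foot of the membrane arm, was at 6961, 8308, 9147 and 7480 FPKM in antagomiR-control replicates 1 to 4 and at 8531, 8594, 8335 and 8463 FPKM in antagomiR-122 replicates 1 to 4. The antagomiR-122 values lay within the range of the controls, and they spread less. mt-Nd2, a proton-pumping subunit, was at 10926, 12125, 13243 and 11780 FPKM in the controls and at 12361, 13335, 11320 and 11740 FPKM with antagomiR-122. These groups overlapped almost completely.

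The other pumping subunits of complex I were lower in level. mt-Nd4 was at 4374, 4934, 5505 and 4996 FPKM in antagomiR-control and at 5363, 5689, 5275 and 5191 FPKM in antagomiR-122, replicates 1 to 4 each. For mt-Nd5 the values were 3566, 4082, 4493 and 3853 FPKM, and 4879, 4471, 3852 and 4795 FPKM. In both genes the lowest library was a control, and the groups overlapped. mt-Nd6, which is read from the other strand, was at 5901, 6494, 7135 and 6394 FPKM in the controls and at 7939, 7718, 6941 and 7762 FPKM with antagomiR-122. Here 3 of the 4 antagomiR-122 libraries were above every control, and replicate 3 was below antagomiR-control replicate 3. The strand setting of the libraries is not given in the sources used here, and without it reads of mt-Nd6 and of plus-strand precursors over its position cannot be told apart.

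mt-Cytb of complex III was at 9817, 11545, 12251 and 11601 FPKM in antagomiR-control replicates 1 to 4. With antagomiR-122 it was at 12342, 12318, 12912 and 11509 FPKM. The first 3 of these were above every control, and the library at 11509 FPKM was below 3 of the 4 controls.

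The catalytic subunit of complex IV, mt-Co1, was at 11917, 13692, 14976 and 12810 FPKM in the controls and at 14960, 13858 and 13388 FPKM in antagomiR-122 replicates 1 to 3, with replicate 4 listed at 0. mt-Co3, the other subunit measured in that complex, was at 1.60, 1.53, 2.22 and 1.96 FPKM in the controls and at 1.61, 1.86 and 2.34 FPKM in antagomiR-122 replicates 1 to 3. Its replicate 4 was also listed at 0. In both genes the 3 values above 0 overlapped the controls. Within a library mt-Co1 was 5723 to 9272 times mt-Co3 per length. Both subunits occur once in each complex, but these are levels of RNA and not of protein. The ratio is also uncertain for the transcripts, since 99.9% of the windows of mt-Co3 were found in a nuclear transcript.

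ATP synthase was measured through a pair of overlapping genes at very different levels. mt-Atp8 was at 75254, 80110, 90652 and 78278 FPKM in the controls and at 87564, 84830 and 78604 FPKM in antagomiR-122 replicates 1 to 3. mt-Atp6 was at 22.0, 23.0, 23.4 and 22.1 FPKM in the controls and at 25.3, 25.7 and 30.1 FPKM in the same 3 libraries. Both were listed at 0 in replicate 4. The 3 values of mt-Atp6 above 0 were all above the controls, while those of mt-Atp8 overlapped them. Per length mt-Atp8 was 2614 to 3880 times mt-Atp6 in the same library, although the genes are read from 1 shared mRNA. The level of mt-Atp6 is one of the uncertain ones, with 99.5% of its windows found in a nuclear transcript. mt-Atp8 is 204 bases long, so its FPKM rests on a short stretch and is an uncertain measure beside longer genes. It made up 55.8% to 58.4% of all mitochondrial FPKM in the 7 libraries in which it was above 0.

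**Figure D2:**
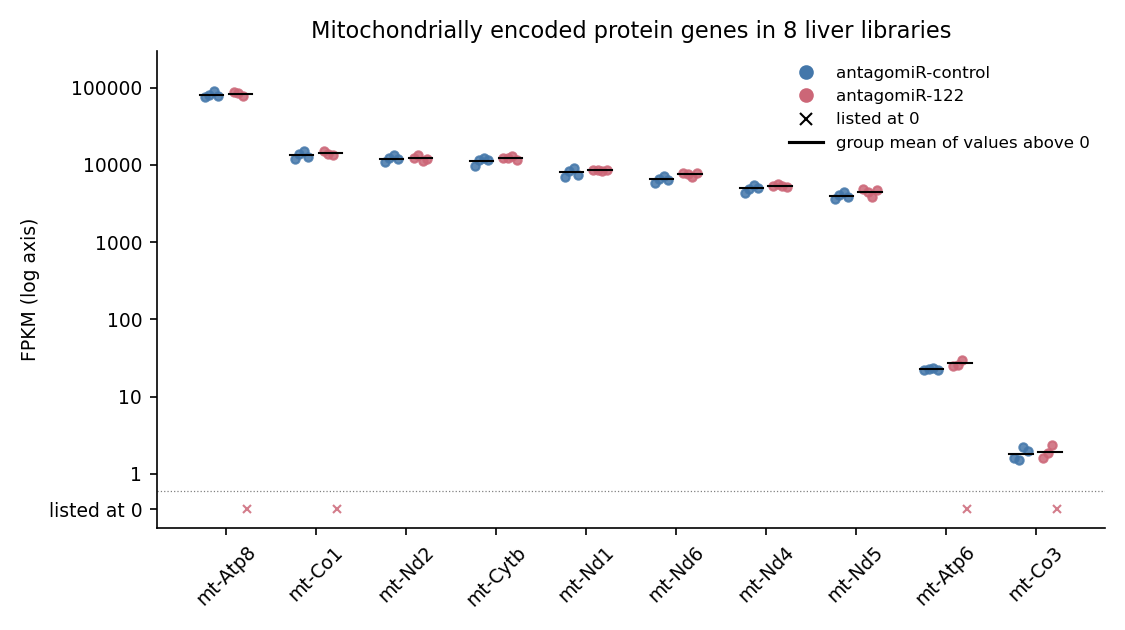
FPKM (log axis) of the 10 genes in each library, ordered by mean level, with antagomiR-control in blue and antagomiR-122 in red; black lines are group means of the values above 0 and crosses are values listed at 0. mt-Atp6 and mt-Co3 sit far below the other 8 genes, and the 4 crosses all belong to antagomiR-122 replicate 4.

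By mean level per length the order was mt-Atp8, mt-Co1, mt-Nd2, mt-Cytb, mt-Nd1, mt-Nd6, mt-Nd4, mt-Nd5, mt-Atp6 and mt-Co3. This order held within single libraries, though the place of mt-Atp8 is uncertain because the gene is short. The places of mt-Atp6 and mt-Co3 rest on the uncertain levels described above, and mt-Nd4 and mt-Co1 also share sequence with nuclear copies. An error common to all libraries would leave the order the same in each of them. For every pair of neighbours but 1, the first gene was above the second in each library in which both were above 0. The exception was mt-Nd2 over mt-Cytb, which held in 7 of 8 libraries, with ratios from 0.877 to 1.11. Those levels did not differ beyond their spread. Among the complex I genes, mt-Nd2 was 2.45 to 3.06 times mt-Nd5, and mt-Nd6 was 1.59 to 1.80 times mt-Nd5. In the 7 libraries other than antagomiR-122 replicate 4, 8 of the 10 genes were among the 20 entries with the highest mean FPKM of the whole table.

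The 6 genes above 0 in all libraries, mt-Nd1, mt-Nd2, mt-Nd4, mt-Nd5, mt-Nd6 and mt-Cytb, moved together from mouse to mouse. All 6 were at their lowest in antagomiR-control replicate 1, by 0.15 to 0.26 log2 units below their own mean over the libraries. All 6 were also at their highest control value in antagomiR-control replicate 3. The libraries with antagomiR-122 differed in how closely the 6 genes kept together. In replicate 2 all 6 lay 0.063 to 0.14 log2 units above their means, and in replicate 1 they lay 0.03 to 0.2 above. Replicates 3 and 4 had genes on either side of their means. In replicate 3, mt-Cytb was 0.13 log2 units above its mean and mt-Nd5 0.14 below, and in replicate 4, mt-Nd5 was 0.17 above and mt-Nd2 0.04 below.

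**Figure D3:**
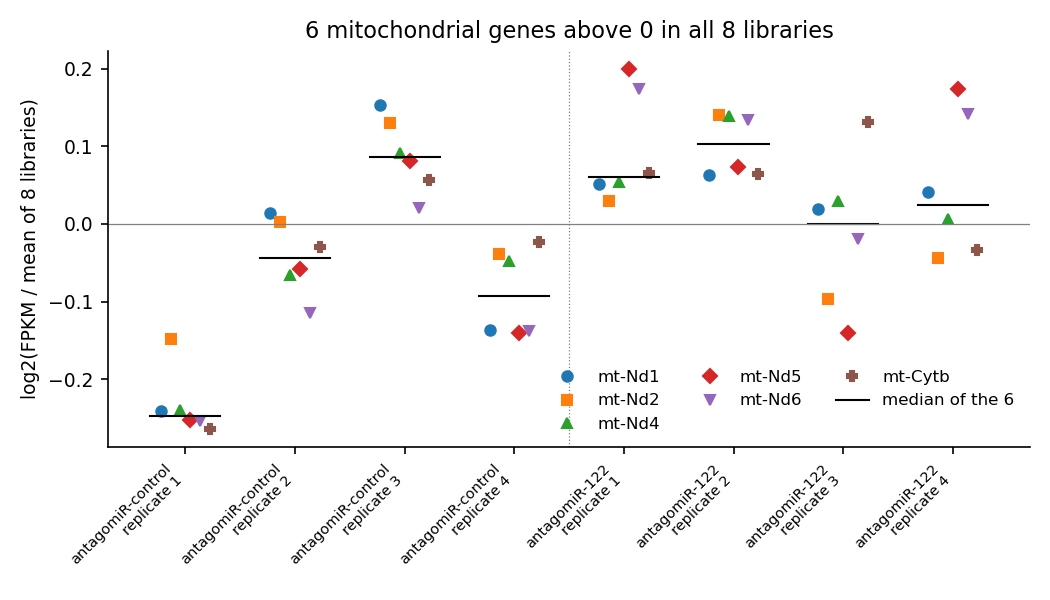
Log2 of FPKM over the mean of the 8 libraries, for the 6 genes above 0 in every library; each symbol is 1 gene and the black line is the median of the 6. All symbols of antagomiR-control replicate 1 lie between -0.26 and -0.15, below those of the other libraries.

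Much of this spread was common to the genes. The coefficient of variation of FPKM over the 8 libraries was 7.06% to 11.3%, and that of each gene's share of the summed FPKM of the 6 was 1.93% to 6.65%. Most shares were alike in the groups. mt-Nd1 held 17.0% ± 0.67 of the sum in controls and 16.8% ± 0.341 with antagomiR-122, and mt-Nd4 held 10.6% ± 0.188 and 10.7% ± 0.244 (SD, n = 4 each). mt-Nd6 held 13.9% ± 0.229 and 15.1% ± 0.641, and mt-Nd2 held 25.7% ± 0.374 and 24.2% ± 1.0 (SD, n = 4 each). Of the 6 genes only mt-Nd6 had groups that did not overlap, and they were barely apart. The nearest libraries were antagomiR-control replicate 1 (5901 of 41544 FPKM) and antagomiR-122 replicate 3 (6941 of 48635 FPKM). How often genes at large are apart on such a measure was not computed. These shares of the sum are a description without a test, and since they add up to a whole, a higher share of 1 gene lowers the others.

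Summed over the 6 genes, the level came to 41544, 47488, 51773 and 46104 FPKM in the 4 controls, replicates 1 to 4. The 4 antagomiR-122 mice had sums of 51416, 52124, 48635 and 49460 FPKM in the same order. Means of 46727 ± 4215 and 50409 ± 1633 FPKM (SD, n = 4 each) stood in a ratio of 1.079, and all 4 antagomiR-122 libraries lay within or just above the range of the controls. Against the summed FPKM of all nuclear genes in the same library, the 6 genes amounted to 8.40% to 10.4% in controls and 8.88% to 10.5% with antagomiR-122. In summed FPKM the group with antagomiR-122 was less spread out than the controls, which ranged from the lowest to nearly the highest sum. Against nuclear FPKM the ranges of the groups were nearly as wide as each other. Of the 6 genes, mt-Nd5 spread more with antagomiR-122 (SD 391 FPKM in controls and 466 FPKM with antagomiR-122), and the others spread less. In bulk liver, fewer cells of a type and less RNA per cell cannot be told apart.

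None of the 10 genes differed between the groups past the threshold. limma was run on log2(FPKM + 1) over the 11131 genes that averaged 1 FPKM or more. It gave 0 of the 10 genes at a Benjamini-Hochberg adjusted p under 0.05, beside 0% of all genes tested. The smallest adjusted p among the 10 was 0.597. Of the 10, 9 had a log2 fold change above 0, against 53.1% of all genes tested, and 7 did after scaling to equal nuclear FPKM, where mt-Nd2 and mt-Atp8 turned below 0 and 44.6% of all genes tested were above it. The median of the 10 was 0.11 beside 0.011 over all tested genes. These genes are read from shared precursors and vary together, so the 9 are not 9 separate observations.

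At an unadjusted p under 0.05, 2 of the 10 were higher with antagomiR-122, mt-Nd6 and mt-Atp6, where 3.79% of all tested genes were higher and 3.69% lower at that level. mt-Nd6 averaged 6481 ± 507 FPKM in controls and 7590 ± 443 FPKM with antagomiR-122 (SD, n = 4 each). Its log2 fold change was 0.23 ± 0.09 (SE, limma adjusted p = 0.601). mt-Atp6 had 0.24 ± 0.09 (SE, limma adjusted p = 0.597), with antagomiR-122 replicate 4 left out of the fit because it was listed at 0. Its level of 22.0 to 30.1 FPKM is one of the uncertain ones, with 99.5% of its windows found in a nuclear transcript.

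The remaining complex I genes and mt-Cytb had small positive log2 fold changes with overlapping groups. They were 0.17 ± 0.11 for mt-Nd5 and 0.12 ± 0.09 for mt-Nd4, and 0.10 ± 0.10 for mt-Nd1 and 0.02 ± 0.09 for mt-Nd2 (SE, 4 mice a group). mt-Cytb had 0.12 ± 0.09. For mt-Co1 and mt-Atp8, fitted without antagomiR-122 replicate 4, the values were 0.08 ± 0.10 and 0.05 ± 0.10. Without antagomiR-control replicate 1, the lowest control, these values were 0.034 for mt-Nd1, 0.065 for mt-Nd4, 0.056 for mt-Cytb, 0.027 for mt-Co1 and 0.013 for mt-Atp8, and mt-Nd2 was at -0.024. Without antagomiR-control replicate 3, the highest control of these 4 genes, mt-Nd1 was at 0.17, mt-Co1 at 0.14, mt-Atp8 at 0.10 and mt-Nd2 at 0.069. Adjusted p-values of these 7 genes in all libraries ranged from 0.763 to 0.971 in limma. A p that misses the threshold does not show that the levels were equal.

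mt-Co3 alone had a negative value, -0.33 ± 0.34 (SE, limma adjusted p = 0.852), and it rested on 1 library and on the pseudocount, since it was -1.004 ± 0.866 on the log2(FPKM + 0.1) scale. Its control level was too low for its 0 in antagomiR-122 replicate 4 to be treated as missing. With that 0 treated as missing as well, a setting chosen after seeing the data, mt-Co3 was at 0.05 ± 0.13. With all zeros kept as deposited, mt-Atp8, mt-Co1 and mt-Atp6 turned to -4.04 ± 4.01, -3.37 ± 3.38 and -0.96 ± 1.14, and none passed the threshold.

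**Figure D4:**
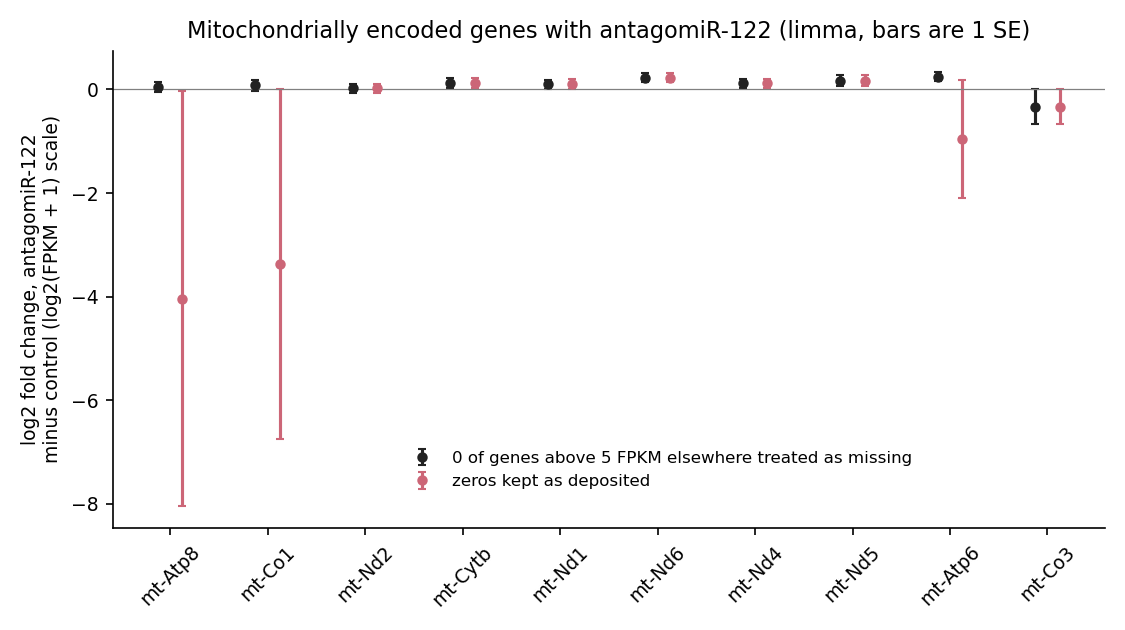
Log2 fold change of antagomiR-122 over antagomiR-control on the log2(FPKM + 1) scale, with bars of 1 SE from limma, for the 10 genes. Black symbols treat the 0 of mt-Atp8, mt-Co1 and mt-Atp6 in antagomiR-122 replicate 4 as missing, and red symbols keep it, which turns these 3 genes to -4.04, -3.37 and -0.96 while the other 7 stay in place.

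The authors' deposited table gives the same 10 genes a Cuffdiff q-value of 0.999 each, where it calls 1.42% of 13259 tested genes significant. In the authors' deposited table the log2 fold change was -0.34 for mt-Co1, -0.37 for mt-Atp8, -0.16 for mt-Atp6 and -0.33 for mt-Co3, and 0.23 for mt-Nd6. Its group values for the first 4 include the listed zeros, as 10552 FPKM for mt-Co1 with antagomiR-122 against 13349 FPKM in controls.

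The groups overlapped in all 10 genes over the 8 libraries when zeros are counted as listed, where 4.52% of tested genes did not overlap in either direction. Without antagomiR-122 replicate 4, mt-Atp6 and mt-Cytb were above every control in the 3 libraries left, 2 of the 10, where 3.93% of genes were higher without overlap and 8.26% were apart in either direction. For mt-Cytb the difference at the border was between 12318 and 12251 FPKM. Of these 2 genes, mt-Atp6 also had an unadjusted p under 0.05 in the fit of all libraries, and mt-Cytb did not.

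Nuclear genes of the same machinery were mostly a little higher with antagomiR-122, and none passed the threshold. Of 118 tested genes in 9 lists, 93 had a log2 fold change above 0, against 53.1% of all tested genes, with a median of 0.065. The count was 85 after scaling to equal nuclear FPKM, where 44.6% of all tested genes were higher. It was 94 without antagomiR-122 replicate 4, beside 51.8% of all tested genes, and 83 without antagomiR-122 replicate 3, beside 54.1%. In limma 0 of the 118 had an adjusted p under 0.05, and 1 had an unadjusted p under 0.05, where 7.48% of all tested genes did in either direction. Genes of these lists vary together, and no test of the lists was made.

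Genes that replicate and transcribe the mitochondrial genome were higher in 15 of 17 cases, with a median log2 fold change of 0.087. With libraries left out in turn, the count ran from 12 to 15 of 17. It was 12 without antagomiR-122 replicate 2 (median 0.045) and 15 without antagomiR-122 replicate 4 (median 0.086). Controls had 37.1 ± 1.97 FPKM of Tfam, which packs the mitochondrial DNA and starts its transcription, and antagomiR-122 mice had 41.0 ± 1.94 FPKM (SD, n = 4 each). The helicase Twinkle (Peo1) averaged 6.00 ± 0.753 and 7.07 ± 0.386 FPKM (SD, n = 4 each). On the lower side of the list, Top1mt, a mitochondrial topoisomerase, had a log2 fold change of -0.09 and Primpol, a primase, -0.12. The groups overlapped in these 4 genes.

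For RNA processing and decay in mitochondria, 17 of 25 genes were higher, with a median of 0.076. Rexo2, an exonuclease of short RNA, had a log2 fold change of 0.17, and Fastkd2, an RNA-binding protein of the organelle, 0.29. Slirp, a stabiliser of mitochondrial mRNA, had -0.09, and Trmt10c, a subunit of the enzyme that cuts the 5′ ends of tRNAs out of the precursors, -0.11. Among mitochondrial translation factors 14 of 19 were higher, with a median of 0.037. Mtif3, an initiation factor, had 0.31, Noa1, a GTPase, 0.30, Mtif2, another initiation factor, -0.08 and Guf1, an elongation factor, -0.11.

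The nuclear-encoded partners of the 10 gene products had small log2 fold changes, and their size moved either way with the library left out. In complex I, 5 of 7 core subunits were higher (median 0.084), with Ndufs7 at 0.13 and Ndufv1 at 0.09, and Ndufs1 at -0.11. Complex III had 8 of 9 higher (median 0.046), among them the core protein Uqcrc1 at 0.11 and Uqcrfs1, the iron-sulphur protein, at 0.09, and its 1 lower gene, Uqcrh, the hinge protein, was at -0.0012. In complex IV, 9 of 11 were higher (median 0.072), with Cox5b at 0.10, Cox7c at 0.08, Cox7b at -0.02 and Cox7a2 at -0.0039. ATP synthase had 14 of 15 higher (median 0.063), with Atp5g3, a gene of the rotor ring, at 0.14, Atp5h (subunit d) at 0.12 and Atp5j2 (subunit f) at -0.0028. Complex II, which has no mitochondrially encoded subunit, had 4 of 4 higher (median 0.057), with Sdhc, a membrane anchor, at 0.09 and Sdhb, the iron-sulphur subunit, at 0.08. After scaling to equal nuclear FPKM the counts were 5 of 7, 7 of 9, 9 of 11, 14 of 15 and 3 of 4 for complexes I, III and IV, ATP synthase and complex II. Without antagomiR-122 replicate 3 they were 5 of 7, 5 of 9, 8 of 11, 12 of 15 and 3 of 4 in that order. The medians were then 0.050, 0.016, 0.0083, 0.023 and 0.017. Without antagomiR-122 replicate 4 the counts were 6 of 7, 9 of 9, 11 of 11, 15 of 15 and 4 of 4. The medians in that setting were 0.106, 0.0826, 0.105, 0.104 and 0.0515.

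**Figure D5:**
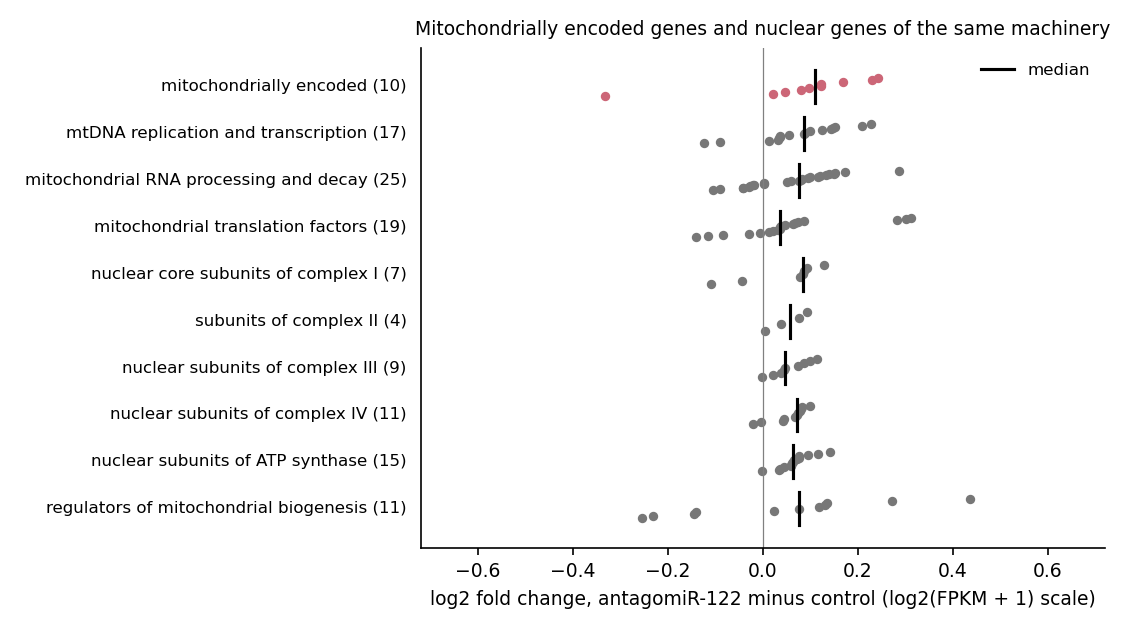
Log2 fold changes (antagomiR-122 over antagomiR-control, log2(FPKM + 1) scale) of the 10 mitochondrially encoded genes, in red, and of the tested nuclear genes in 9 lists, in grey, with the number tested in parentheses and the median as a black line. The medians lie between 0.037 and 0.11, and the widest range, -0.25 to 0.44, is that of the regulators of mitochondrial biogenesis.

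Regulators of mitochondrial biogenesis went both ways, with 7 of 11 higher and a median of 0.076. The mean of Esrra, the nuclear receptor ERRα, which activates many respiratory chain genes, was 7.27 ± 0.991 FPKM in controls and 10.2 ± 1.54 FPKM in the other group (SD, n = 4 each). Its groups overlapped, and its log2 fold change of 0.44 ± 0.12 (SE) had the smallest adjusted p of the 118 genes (limma adjusted p = 0.45), and it was the 1 gene of them with an unadjusted p under 0.05. Tfeb, a transcription factor of lysosome genes, had 0.27. Lower were Gabpa and Gabpb1, the subunits of the factor GABP (NRF-2), with -0.23 and -0.25.

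Some nuclear genes followed the mitochondrial sum closely from library to library. Among 10964 named genes outside the mitochondrial genome, the highest Pearson correlations of log2(FPKM + 1) with the summed level of the 6 genes over the 8 libraries were those of Ltbr (0.943), Commd3 (0.934), E130307A14Rik (0.932), Gtdc1 (0.926) and Erlin1 (0.925). The 6 genes correlated with their own sum at 0.818 to 0.972. Each of them is part of that sum, so these values are in part built in and cannot be compared with those of the nuclear genes. The correlations of the nuclear genes are the extremes of a large search over 8 libraries and are given as a description.

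Liver genes were high, as the labelled tissue calls for. The summed FPKM of 8 hepatocyte markers was 16222 to 18799 in controls and 16268 to 19172 with antagomiR-122, with Alb listed at 0 in all 8 libraries. Markers of other cells were lower. Their summed FPKM in controls and with antagomiR-122 was 208 to 284 and 214 to 263 for Kupffer cells and macrophages, and 167 to 249 and 195 to 350 for erythroid cells. It was 88.3 to 92.9 and 84.9 to 101 for endothelium, 90.6 to 109 and 80.8 to 106 for stellate cells and fibroblasts, and 30.4 to 38.7 and 26.0 to 30.5 for cholangiocytes. Adipocyte markers summed to 0.178 to 0.252 FPKM in controls and 0.238 to 3.74 with antagomiR-122, of which Cfd, the fat cell protease adipsin, made up 0.196 ± 0.038 and 1.58 ± 1.42 (SD, n = 4 each). Lymphocyte markers summed to 1.37 to 2.68 and 1.68 to 4.04 FPKM, and those of heart and skeletal muscle, tissues rich in mitochondria, to at most 0.0334. Of 30 markers tested, 0 passed limma's threshold. 4 had an unadjusted p under 0.05, where 7.48% of all tested genes did. Cyp2e1, a hepatocyte cytochrome P450, had a log2 fold change of 0.29. Of the 7 hepatocyte markers tested, 3 were higher and 4 lower, with a median of -0.0175. Lrat of stellate cells had -0.37, Lyve1 of endothelium -0.37 and Spp1 of cholangiocytes -0.27. In the stellate and endothelial lists 4 of 5 tested genes each were lower and 1 was higher. Of the 5 cholangiocyte markers only 2 were tested, and both were lower. The others averaged under 1 FPKM and went both ways. In controls and with antagomiR-122, Krt19 averaged 0.478 and 0.687 FPKM, Krt7 0.318 and 0.573, and Epcam 0.651 and 0.502. Among the 30 tested markers only the groups of Lrat and Spp1 did not overlap, where 4.52% of all tested genes did not in either direction. The part of these markers in the levels of the mitochondrial genes was not tested.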

How the data were processed

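Liver RNA-seq libraries of 8 mice were compared, 4 per antagomiR, grouped and numbered by their titles. The submitters' processing notes name TopHat2 2.0.13 and GRCm38, with Cufflinks 2.2.1, Cuffdiff, bcl2fastq 2.15.0.4 and cutadapt 1.7.1. How multiply mapped reads, strand and scaling were handled, and which annotation was used, is not given in the sources used here. In its deposited form the table holds FPKM per mouse and per group, a log2 fold change and a test statistic (treated as a score), and a p-value and q-value per gene. Because the authors deposited FPKM and no counts, a count model was not used, and absolute depth is unknown. Relative depth was estimated as the commonest low value of FPKM times length less 200 bases, over 4449 genes with 1 transcript of more than 1500 bases.

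All genes that averaged 1 FPKM or more were fitted as log2(FPKM + 1) with limma 3.58.1 (R 4.3.3), using its trend and robust options, and two-sided p-values were adjusted over all of them by Benjamini-Hochberg. On this scale the change of low genes is understated. A 0 in 1 library of a gene above 5 FPKM in the other 7 was treated as missing. The fit was tested on simulated data. Each library is 1 mouse, so p-values measure the spread between mice. The labels give replicate numbers and name no pairing of mice. Copies were searched with BLAST 2.17.0 (at least 100 bases, over 90% identity) and as exact 50-base windows, on both strands, in the GENCODE M21 transcripts outside the mitochondrial chromosome, whose coordinates for all 37 mitochondrial genes match the table.

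The genes and lists were chosen with earlier results of these data known. Named genes are the 10, the other mitochondrial protein genes, the 2 higher and 2 lower genes of smallest p in each pathway list, and the 5 nuclear genes most correlated with the summed level. 1 gene that this rule names is not reported here. Pseudogenes were named after their values were seen. Alternatives changed zeros, pseudocount, filter, scaling, block, limma options and libraries. Summed levels were not tested. 0 columns of per-sample values stayed unmatched.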

Additional observations from a re-analysis of the deposited data

Results flagged for a closer look

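In 3 of the 10 genes, antagomiR-122 replicate 4 lay far from the other 3 libraries of its group, because it was listed at 0. The gap to the nearest library was 0.895 of the group's range for mt-Co1, 0.898 for mt-Atp8 and 0.841 for mt-Atp6, all above Dixon's 95% critical value for 4 samples. About 1 in 20 groups is expected beyond that limit by chance. mt-Co3 was listed at 0 in the same library but did not pass it. No library passed for the 6 genes above 0 throughout, or for their sum.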

How the results depend on the processing

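Under the 16 alternative settings no gene among those tested in each setting passed limma's threshold, in either direction. Genes with an unadjusted p under 0.05 numbered 833 as reported and 605 to 1297 in the alternatives, the highest count coming without a filter on low values. The smallest adjusted p of the 10 ranged from 0.502 (without antagomiR-122 replicate 2) to 0.922 (without antagomiR-control replicate 1). With a pseudocount of 0.1, mt-Co3 was at -1.004. The direction changed in the following cases. With zeros kept as deposited, mt-Co1 was at -3.365, mt-Atp6 at -0.959 and mt-Atp8 at -4.04. With FPKM scaled to equal nuclear sums, mt-Nd2 was at -0.01191 and mt-Atp8 at -0.01148. mt-Co3 was at 0.05453 with its 0 as missing, a setting added after seeing the data. Over libraries left out in turn, mt-Nd2 ranged from -0.02364 (without antagomiR-control replicate 1) to 0.06881 (without antagomiR-control replicate 3), with -0.02309 without antagomiR-122 replicate 2, and mt-Co3 from -0.5253 (without antagomiR-122 replicate 3) to 0.05453 (without antagomiR-122 replicate 4). The replicate block gave 0 calls among the 10 genes, with a smallest adjusted p of 0.881, and 665 genes at an unadjusted p under 0.05. Same-numbered mice correlated in their deviations from the group means at 0.141, -0.274, -0.0264 and -0.198, and mice of different number at -0.208 to 0.329. These values show no pairing by number, but so few pairs cannot exclude one. Windows of 75 bases, chosen after seeing the data, gave 39.8% for mt-Co1, 5.71% for mt-Nd2 and 1.66% for mt-Nd5, and left the other shares within 1 percentage point. mt-Co3 and mt-Atp6 are limited by their low listed levels, and all 10 genes by 4 mice per group.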
